A study of Mus musculus with 12 samples.

Results

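The 10 genes described here encode neuronal intermediate filaments, microtubule proteins and other proteins of long axons: Nefl, Nefm, Nefh, Ina, Prph, Tubb3, Stmn2, Sncg, Uchl1 and Thy1. They were taken as a named list, drawn up with earlier results of these data known, and each had 1 row among the 24340 rows of the expression table, with 18509 rows not at 0 throughout. All 10 were above 0 in all 12 libraries. On day 3 after a transient rise of intraocular pressure (IOP), 8 of the 10 were called lower in the treated retina over 6 mice, with log2 differences from -1.70 to -0.84, where 5.44% of all rows were called lower. With the eyes of each mouse paired (a replicate block) 4 of the 10 were called lower, beside 2.47% of all rows. Leaving out single libraries gave 1 to 9 of the 10, beside 0.944% to 13.6% of all rows. Peripherin (Prph) was not called over 6 mice: its level was lower in 3 mice and higher in the other 3. No effect of ganciclovir (GCV) was called for any of the 10, and the loss was large in some mice and small in others under both treatments.

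RNA came from both retinas of 6 mice of the p16-3MR strain, aged 12 to 16 weeks, in which control and treated animals alike carry a transgene. Regulatory sequence of the p16Ink4a gene drives a fusion of Renilla luciferase, mRFP and a viral thymidine kinase, and the kinase turns GCV toxic in the cells that make it. In each mouse 1 eye was held at 85 to 90 mm Hg for 60 min under anesthesia and the other eye was the control. Mice 1, 2 and 5 received intraperitoneal GCV at 25 mg/kg daily, mice 3, 4 and 6 were sham-treated with PBS, and retinas were taken on day 3. This gave 4 groups of 3 libraries: control, IOP-treated, control with GCV and IOP-treated with GCV.

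Neurofilaments are polymers that fill large axons, set axon caliber and are built from a light (Nefl), a medium (Nefm) and a heavy (Nefh) chain together with α-internexin (Ina). In the retina the neurons with the longest axons are the retinal ganglion cells, whose fibers form the optic nerve, and neurofilament transcripts are best known from these cells and from large horizontal cells. Peripherin is a further neuronal intermediate filament, typical of peripheral and sensory neurons and known to be induced in some neurons after axon injury. Tubb3 is the β-tubulin of neurons and Stmn2 a regulator of microtubule dynamics in growing axons, while Sncg, Thy1 and Uchl1 are used as ganglion cell markers to varying degrees. In whole-retina RNA, fewer cells of a type and less RNA per cell cannot be told apart.

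The genes lie on 8 chromosomes (mm10, which is GRCm38). Nefl (chr14:68083863-68089095) and Nefm (chr14:68119545-68125004) are neighbors with 30449 bases between them, and Sncg (chr14:34370274-34374669) is on the same chromosome. Nefh is at chr11:4938754-4948064, Ina at chr19:47014681-47025327, Prph at chr15:99053579-99058978, Tubb3 at chr8:123411553-123422015, Stmn2 at chr3:8509527-8561604, Uchl1 at chr5:66676121-66687234 and Thy1 at chr9:44043384-44048579. Of the protein-coding genes, Ap1b1 (60.7 to 89.4 FPKM, fragments per kilobase of exon relative to library size) shares 745 bases of its span with Nefh, and Nt5c2 (10.2 to 16.4 FPKM) shares 494 bases with Ina. Of the long noncoding RNA genes, Gm35321, whose level was not analysed here, shares 4484 bases with Nefh, A230070E04Rik (0.407 to 1.42 FPKM) shares 1253 bases with Nefm, and Uchl1os (0 to 0.0872 FPKM) shares 377 bases with Uchl1. The kit kept strand, but whether counting used it is not given in the sources used here, so reads from these overlaps cannot be assigned with certainty.

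The RefSeq promoter table (GRCm38.p6) held 5 of the 10 genes, Ina, Prph, Tubb3, Sncg and Uchl1. The 250 bases before the listed start are shown for a pair of intermediate filament genes whose responses differed, Ina and Prph, and for Tubb3. Capitals mark matches, on either strand, to GGGCGG (the GC box, which reads CCGCCC on the other strand) or TATAAA (the TATA box). Ina is at chr19:47014431-47014680, Prph at chr15:99054924-99055173, where the listed start lies inside the annotated gene, and Tubb3 at chr8:123411303-123411552, all on the plus strand.
Ina: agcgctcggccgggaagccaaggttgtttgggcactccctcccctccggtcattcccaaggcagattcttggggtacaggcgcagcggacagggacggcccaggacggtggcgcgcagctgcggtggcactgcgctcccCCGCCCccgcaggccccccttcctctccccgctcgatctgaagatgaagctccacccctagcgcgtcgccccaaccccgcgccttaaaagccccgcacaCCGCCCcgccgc
Prph: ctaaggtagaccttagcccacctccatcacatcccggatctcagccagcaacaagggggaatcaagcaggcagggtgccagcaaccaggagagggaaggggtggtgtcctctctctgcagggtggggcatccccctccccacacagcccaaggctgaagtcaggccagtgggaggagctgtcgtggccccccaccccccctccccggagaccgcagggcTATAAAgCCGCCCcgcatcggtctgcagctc
Tubb3: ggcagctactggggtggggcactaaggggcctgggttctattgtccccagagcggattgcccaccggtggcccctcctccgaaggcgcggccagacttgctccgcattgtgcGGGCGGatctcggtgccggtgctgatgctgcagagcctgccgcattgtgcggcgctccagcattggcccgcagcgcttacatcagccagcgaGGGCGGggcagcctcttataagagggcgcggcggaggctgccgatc

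Ina and Tubb3 each held 2 GC boxes, Prph held 1 and Sncg held 1, and the 5th gene, Uchl1, held none. Of 32851 promoters of this length, 32.7% held GGGCGG on either strand. Of the 5, only Prph held TATAAA, with its first base 31 bases before the start, a match found in 12.4% of all promoters. No match was found in the 5 for TGANTCA (AP-1 site, in 6.75% of all promoters), TTCNNNGAA (STAT site, 7.02%) or TGACGTCA (CRE, 1.55%), searched on both strands. The G and C content was 70.8% for Ina, 68% for Tubb3, 65.2% for Prph, 61.6% for Sncg and 48.8% for Uchl1. These matches describe letters in a short window and none of them is a measured binding site.

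The estimated depth was 6840000 to 9020000 fragments in 11 libraries and 3960000 in the IOP-treated library of mouse 6, in which 14844 genes were above 0 against 16044 to 16593 elsewhere. Prph, at an estimated 17.7 to 110 fragments per library, was the member with the fewest fragments. The other 9 genes rested on at least 89.7 estimated fragments in every library. The tissue label fitted its markers, since rod genes summed to 30418 FPKM or more in every library. Lens crystallins and other lens markers summed to between 92 and 6069 FPKM in IOP-treated eyes and to 6735 FPKM in the control eye of mouse 1, against 4.63 to 120 FPKM in the other controls. The part of lens tissue in the results below was not tested.

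In control retinas without GCV (n = 3) Sncg was the most abundant of the 10 genes, at 402 ± 52.8 FPKM (SD). Nefl followed at 237 ± 24.8 FPKM and Thy1 at 214 ± 24.0 FPKM, and the values of these neighbors overlapped. Uchl1 stood at 163 ± 17.2 FPKM, below every Thy1 value, and Tubb3 at 114 ± 5.37 FPKM, below every Uchl1 value. Nefm (70.6 ± 10.8 FPKM) and Stmn2 (69.8 ± 6.87 FPKM) overlapped, as did Nefh (40.8 ± 6.33 FPKM) and Ina (37.7 ± 5.80 FPKM). Prph was last at 3.95 ± 1.13 FPKM. FPKM is scaled to transcript length, so these levels can be compared between genes, within the limits of the transcript models used.

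**Figure D1:**
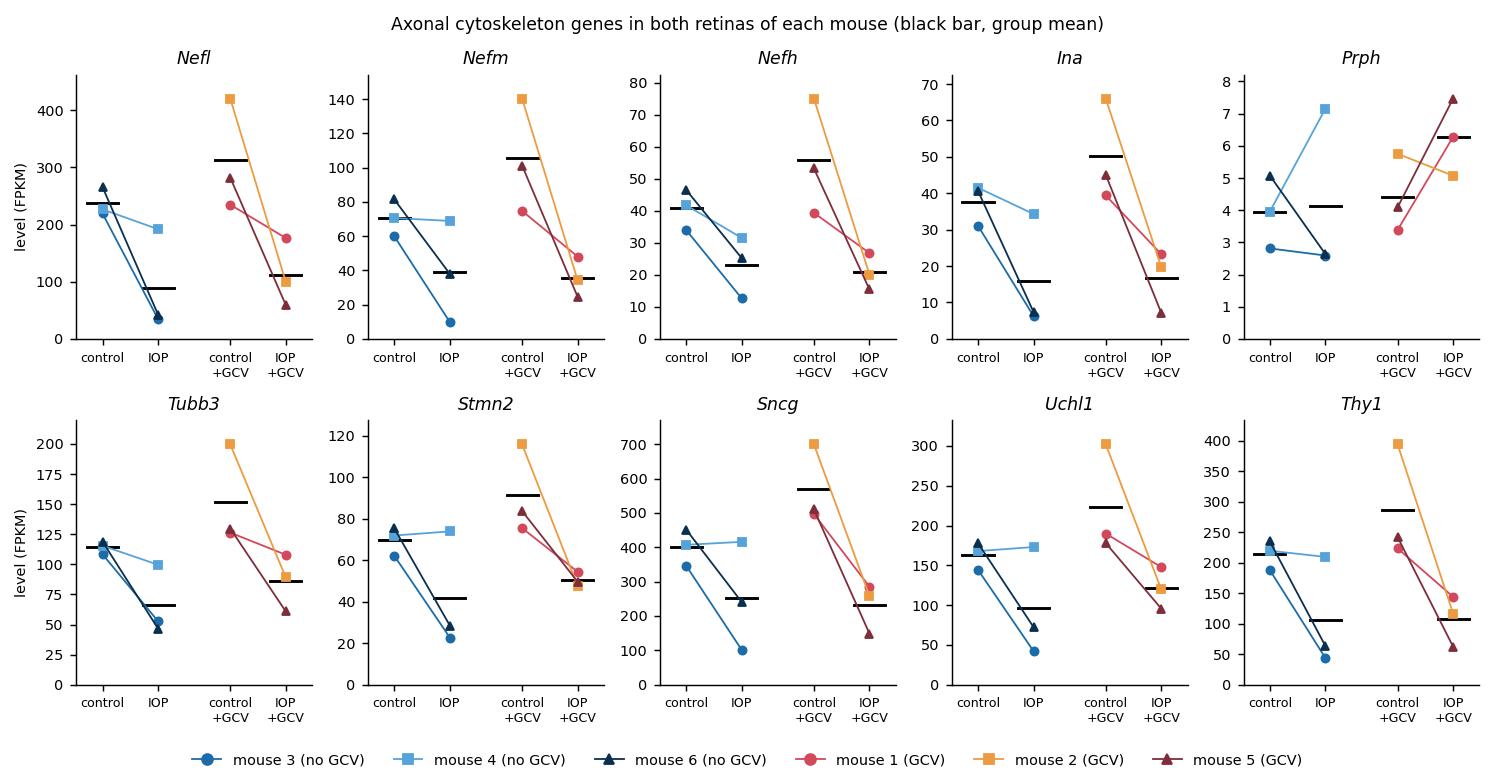
Level (FPKM, linear axis from 0) of each of the 10 genes in the control and IOP-treated retina of every mouse, with the retinas of 1 mouse joined by a line and group means as black bars (n = 3 per group). Lines slope down for 9 of the 10 genes in mice 3, 6, 1, 2 and 5, are flattest in mouse 4 (75.6% to 103% of the control eye), and split in both directions for Prph.

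The light chain Nefl, on which assembly of the neurofilament depends, had the lowest estimate of the 10 over all 6 mice, though with GCV alone that of Ina was lower. Control retinas without GCV held 219 FPKM in mouse 3, 227 in mouse 4 and 266 in mouse 6, and the IOP-treated retinas of the same mice held 34.8, 192 and 42.6 FPKM. With GCV the control values were 235 FPKM in mouse 1, 420 in mouse 2 and 282 in mouse 5, against 176, 99.8 and 59.3 FPKM after IOP elevation. Every IOP-treated value lay below every control value within both treatments, although the treated retina of mouse 4 kept 84.7% of its control eye and that of mouse 3 kept 15.9%. Over all 6 mice the difference was -1.70 on the log2(FPKM + 1) scale, with a standard error (SE) of 0.41 and an adjusted p of 0.0299 (limma, Benjamini-Hochberg over the 18509 rows). With the mouse as a replicate block the adjusted p was 0.0532, which ended the call.

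Nefm, the medium chain, had control values of 59.9, 70.6 and 81.4 FPKM in mice 3, 4 and 6 and treated values of 9.77, 68.9 and 37.9 FPKM. With GCV it stood at 74.7, 140 and 101 FPKM in the control eyes of mice 1, 2 and 5 and at 48.1, 34.3 and 24.6 FPKM in their treated eyes. The groups overlapped without GCV, through mouse 4, and did not overlap with GCV. The difference over 6 mice was -1.37 (SE 0.39, adjusted p = 0.0482 by limma), and the call ended in the fit with the replicate block (adjusted p = 0.0593).

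Nefh, the heavy chain whose long tail projects from the filament, was the member with the smallest adjusted p. It stood at 34.0, 41.8 and 46.5 FPKM in the control eyes of mice 3, 4 and 6 and at 12.7, 31.6 and 25.2 FPKM in the treated eyes, and at 39.4, 75.1 and 53.3 FPKM against 26.8, 20.1 and 15.5 FPKM in mice 1, 2 and 5 with GCV. Treated values lay below all control values in both treatments. The log2 difference over 6 mice was -1.12 (SE 0.24, adjusted p = 0.0174 by limma), and Nefh was the only 1 of the 10 genes still called whichever of the 12 libraries was left out.

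Ina encodes α-internexin, the partner of the 3 chains in central axons. Its control values were 31.1, 41.5 and 40.6 FPKM in mice 3, 4 and 6, and its treated values 6.26, 34.3 and 7.38 FPKM. In mice 1, 2 and 5 with GCV the values were 39.4, 66.0 and 45.0 FPKM in control eyes and 23.3, 19.7 and 7.13 FPKM in treated eyes. As for Nefm, only the retina of mouse 4 made the groups overlap without GCV. The difference was -1.61 over 6 mice (SE 0.41, adjusted p = 0.0337 by limma), and it stayed past the threshold with the replicate block (adjusted p = 0.0444).

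Prph stood apart from the other 4 intermediate filament genes. Control values were 2.81, 3.96 and 5.08 FPKM in mice 3, 4 and 6 and treated values 2.59, 7.15 and 2.64 FPKM, so that the treated eye was lower in mice 3 and 6 and reached 181% of its control in mouse 4. With GCV the control values were 3.38, 5.75 and 4.09 FPKM in mice 1, 2 and 5 and the treated values 6.28, 5.07 and 7.47 FPKM, which overlapped the controls. The log2 difference over 6 mice was 0.20 (SE 0.23, 95% confidence interval -0.31 to 0.72, adjusted p = 0.598 by limma). The other 4 filament genes had estimates from -1.70 to -1.12, all below that interval.

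Tubb3 had control values of 108, 115 and 119 FPKM in mice 3, 4 and 6 and treated values of 52.7, 99.6 and 46.6 FPKM. With GCV it was at 126, 200 and 130 FPKM in the control eyes of mice 1, 2 and 5 and at 108, 89.1 and 60.8 FPKM in the treated eyes, and neither treatment gave an overlap. Stmn2 was at 62.1, 71.9 and 75.3 FPKM against 22.7, 73.9 and 28.5 FPKM without GCV, and at 75.5, 116 and 83.7 FPKM against 54.4, 47.6 and 49.6 FPKM with GCV. Both microtubule genes were called over 6 mice, at -0.84 for Tubb3 (SE 0.21, adjusted p = 0.0331 by limma) and -0.87 for Stmn2 (SE 0.25, adjusted p = 0.0464). The replicate block left Tubb3 just past the threshold (adjusted p = 0.0498) and ended the call for Stmn2 (0.0603).

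Sncg encodes γ-synuclein, a soluble protein of the soma and axon. It was at 346, 407 and 451 FPKM in the control eyes of mice 3, 4 and 6 and at 101, 416 and 240 FPKM in the treated eyes, and at 497, 700 and 510 FPKM against 285, 259 and 149 FPKM in mice 1, 2 and 5. Thy1, a glycolipid-anchored surface protein of neurons, was at 188, 219 and 235 FPKM against 43.7, 209 and 63.4 FPKM without GCV and at 223, 394 and 242 FPKM against 144, 116 and 62.3 FPKM with GCV. For both genes only mouse 4 brought treated values into the control range. The estimate was -1.11 for Sncg (SE 0.31, adjusted p = 0.0451 by limma, 0.0507 with the replicate block) and -1.39 for Thy1 (SE 0.36, adjusted p = 0.0366, 0.0488 with the replicate block).

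Uchl1, a ubiquitin hydrolase abundant throughout neurons, was at 144, 168 and 178 FPKM in the control eyes of mice 3, 4 and 6 and at 42.1, 173 and 72.3 FPKM in the treated eyes. In mice 1, 2 and 5 the values were 190, 302 and 178 FPKM against 148, 120 and 95.5 FPKM. The treated eye was lower in 5 of 6 mice, and the estimate over 6 mice, -0.93 (SE 0.30, adjusted p = 0.0647 by limma), did not pass the threshold. When rows that reached 1 FPKM in no more than 2 libraries were dropped, it did (adjusted p = 0.0443).

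Over all 6 mice 8 of the 10 genes were called lower and none higher, where 5.44% of all rows tested were called lower and 12.2% in either direction. At an unadjusted p under 0.05 there were 9 of 10, where 30.3% of all rows passed. The median log2 difference of the 10 was -1.11, against 0.0089 for all rows. With the mouse as a replicate block 4 of the 10 were called lower (Ina, Nefh, Thy1 and Tubb3), where 2.47% of all rows were. The count depended on single libraries: it was 1 (Nefh) without any one of the 6 control libraries, the treated library of mouse 6 or the treated library of mouse 5, 2 without the treated library of mouse 3, 4 without that of mouse 2, 6 without that of mouse 1, and 9 without that of mouse 4. The share of all rows called lower in these fits moved as well, from 0.944% without the control library of mouse 4 to 13.6% without its treated library. The direction of the 10 estimates over 6 mice was the same in all 12 of these fits.

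**Figure D2:**
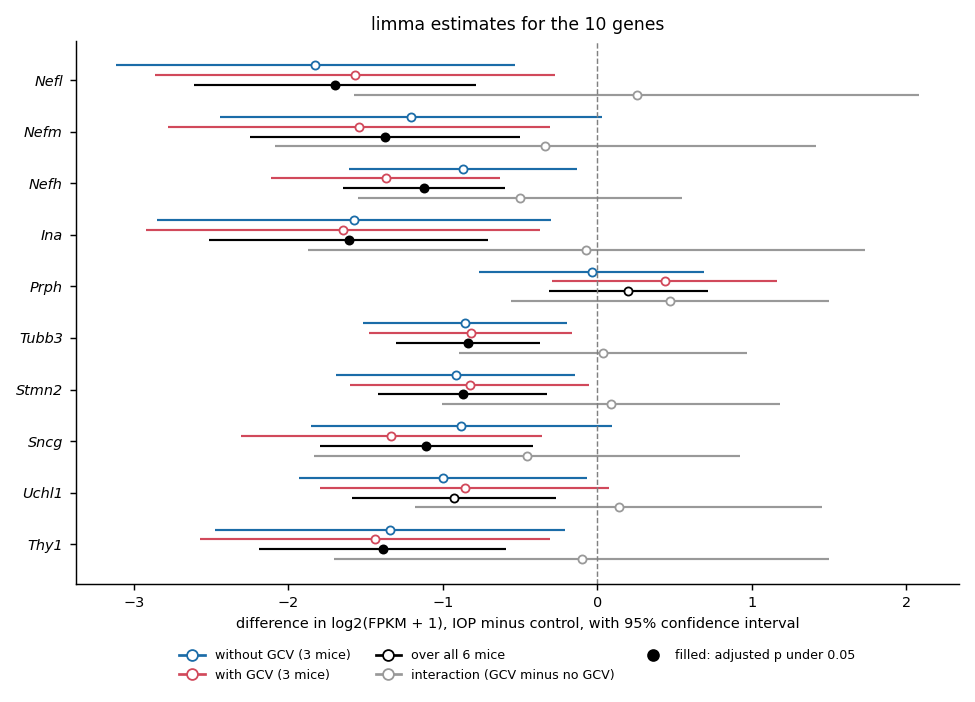
Estimated differences in log2(FPKM + 1) between IOP-treated and control retinas with 95% confidence intervals, for mice without GCV (blue), with GCV (red) and over all 6 mice (black), and the difference between both treatments (gray); filled points have an adjusted p under 0.05. Filled points appear only among the black estimates, for 8 genes from -1.70 to -0.84, and every gray interval includes 0.

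Within the treatments separately none of the 10 genes passed the threshold. Without GCV the estimates ran from -1.82 for Nefl (adjusted p = 0.170 by limma) to -0.04 for Prph, 7 of the 10 had an unadjusted p under 0.05 where 18.9% of all rows did, and 1.65% of all rows were called. With GCV they ran from -1.64 for Ina to 0.44 for Prph, 8 had an unadjusted p under 0.05 where 19.2% of all rows did, and 1.8% of all rows were called. Nefh came nearest with GCV, at -1.37 (adjusted p = 0.0701 by limma). Without the treated library of mouse 4, 8 of the 10 were called lower in mice without GCV, where 8.25% of all rows were. In the same fit, where the 4 groups share 1 estimate of the spread, 5 were called lower with GCV (2.57% of all rows), and 3 were called there without the treated library of mouse 3 (0.527%).

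GCV did not detectably change the response of any of the 10 genes. The difference between both IOP effects ran from -0.50 for Nefh to 0.47 for Prph (adjusted p from 0.997 to 1.00 by limma), no row of the table passed (0.0% called), and 358 rows (1.93%) had an unadjusted p under 0.05, none of them 1 of the 10. The intervals were wide, from -1.57 to 2.08 for Nefl and from -1.55 to 0.55 for Nefh. In IOP-treated retinas GCV against no GCV gave estimates between -0.09 for Nefh and 0.61 for Nefl, and in control retinas between 0.13 for Prph and 0.54 for Nefm. None of the 10 passed in either comparison, and at an unadjusted p under 0.05 there were 774 (4.18%) and 295 (1.59%) rows of the table, again with none of the 10 among them. All 10 genes had a higher mean in control retinas with GCV than without, where 8588 of all 18509 rows had a negative log2 estimate. Among control retinas with GCV the library of mouse 2 was the highest for all 10, as it was for 36.5% of all rows.

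Seen by mouse, 54 of the 60 differences between the eyes of an animal were below 0. Nefl, Nefm, Nefh, Ina, Tubb3 and Thy1 were lower in the treated eye in 6 of 6 mice, as were 10.1% of all rows, and Stmn2, Sncg and Uchl1 were lower in 5 of 6. The 9 genes other than Prph, a grouping made after the values were seen, kept a median of 29.2% of the control level in mouse 3, 39.2% in mouse 6, 29.8% in mouse 2 and 29.0% in mouse 5. In mouse 1 the median was 68.1%, and in mouse 4 it was 95.4%, with single genes between 75.6% (Nefh) and 103% (Stmn2 and Uchl1). All 3 treated values lay below all 3 control values for 3 genes without GCV (Nefl, Nefh and Tubb3), as for 8.81% of all rows, and for the 9 genes other than Prph with GCV, as for 15.3% of all rows.

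**Figure D3:**
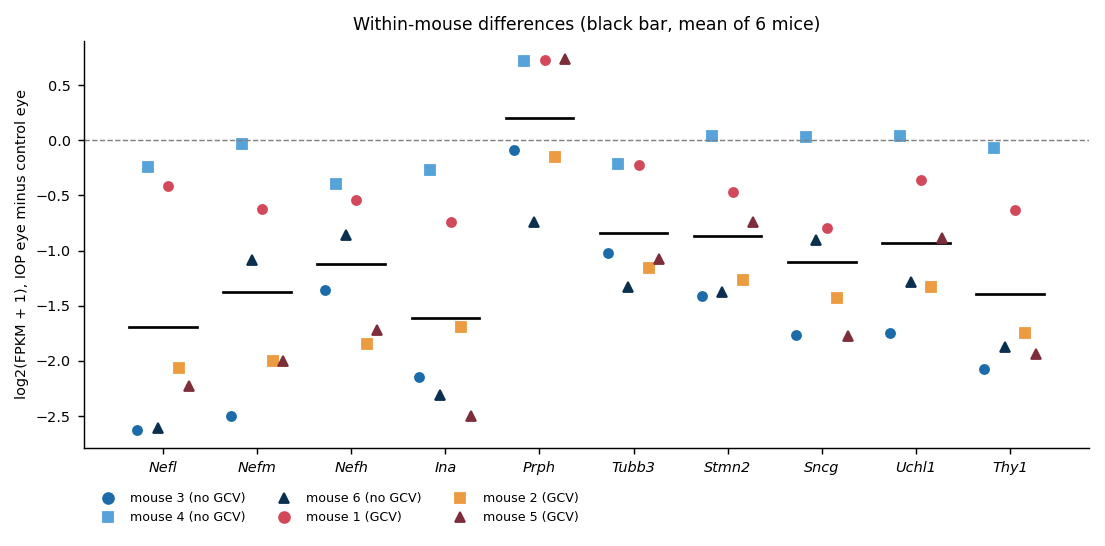
Difference in log2(FPKM + 1) between the IOP-treated and the control eye of the same mouse, for each gene and mouse, with the mean of 6 mice as a black bar and 0 as a dashed line. Mice 4 and 1 sit nearest to 0 for the filament genes other than Prph, where values reach -2.62 for Nefl in mouse 3, and Prph has 3 mice on each side of 0.

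The treated retina of mouse 4 had the highest value of its group for all 10 genes, as 31.2% of all rows did. Its 8 ganglion cell markers other than the 10 genes summed to 152 FPKM, against 150 FPKM in the control eye of the same mouse and 31.8 and 36.1 FPKM in the treated eyes of mice 3 and 6. The same retina did show glial and myeloid responses, with Gfap at 87.5 FPKM against 9.69 in the control eye, Lyz2 at 278 against 6.90 and Cd68 at 43.6 against 3.55 FPKM. Its sum over the 6 myeloid markers, 342 FPKM, was the lowest of the 3 treated retinas without GCV and above that of the treated retina of mouse 2, at 158 FPKM. The median SD of the 10 genes on the log2 scale was 0.18 in control and 1.02 in IOP-treated retinas without GCV, against 0.12 and 0.34 over the 12910 genes averaging 1 FPKM or more. With GCV it was 0.40 in control and 0.44 in IOP-treated retinas, against 0.14 and 0.20 over the same genes.

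Among the 9 genes other than Prph the 36 pairwise correlations over the 12 libraries lay between 0.86 and 0.99 (Pearson, median 0.94). Prph correlated with them at 0.087 to 0.46. These are descriptions over 12 libraries that share mice, pressure treatment and depth. The 6 genes outside the 10 whose values were most like the mean standardized profile of the 10, out of 12900 compared, were Csdc2 (r = 0.995), Kif5a (0.990), Nrip3 (0.987), Epb4.1l3 (0.987), Slc17a6 (0.986) and Gpr158 (0.986). Kif5a is a neuronal kinesin that carries neurofilaments among other cargo, and Slc17a6 is the vesicular glutamate transporter of ganglion cells. Their log2 differences over 6 mice ran from -1.20 for Kif5a to -0.97 for Csdc2. Because the 6 were picked for likeness to a profile that falls with IOP in these same libraries, the direction was set by the choice and no test is given.

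The composition of the filament transcripts was described by ratios within each library, with no test. The ratio of Ina to Nefl was 0.142 to 0.183 in control retinas and 0.120 to 0.197 in treated retinas, with a mean log2 change of 0.010 ± 0.331 (SD, n = 6 mice). Nefm to Nefl was between 0.273 and 0.359 in 10 libraries, and reached 0.415 in the treated retina of mouse 5 and 0.891 in that of mouse 6. Nefh to Nefl changed by 0.554 ± 0.782 on the log2 scale, with changes of 1.23 in mouse 3 and 1.76 in mouse 6 and of -0.16 in mouse 4. This mean ran from 0.31 to 0.70 with 1 mouse left out, and the treated library of mouse 6 had the lowest estimated depth. In the treated eyes of mice 3 and 6, then, the light chain and Ina were reduced together and further than the heavy chain, and in mouse 6 further than the medium chain.

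The ratio of Prph to Nefl was higher in the treated eye in 6 of 6 mice. It lay between 0.0128 and 0.0191 in the 6 control retinas and between 0.0356 and 0.126 in the 6 treated retinas, with no overlap. The mean change was 1.94 ± 0.77 on the log2 scale (SD, n = 6 mice), or 3.84-fold. In 3 of the mice Prph itself was lower in the treated eye and Nefl was lower still, so the ratio does not show that Prph rose.

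**Figure D4:**
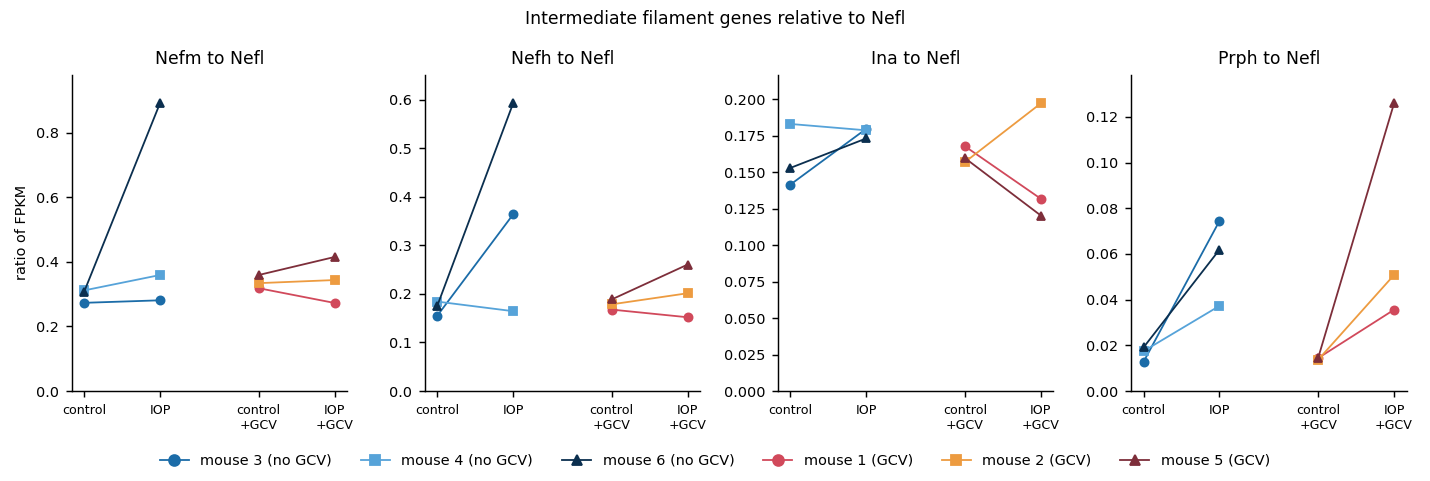
Ratio of the FPKM of Nefm, Nefh, Ina and Prph to that of Nefl in each library (linear axes from 0), with the retinas of 1 mouse joined by a line. Prph to Nefl is above all control values in each of the 6 treated retinas (0.0356 to 0.126 against 0.0128 to 0.0191), Ina to Nefl stays within 0.120 to 0.197, and mouse 6 stands out for Nefm and Nefh.

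Of 10 further α- and β-tubulin genes, 2 were called higher over 6 mice, where 6.76% of all rows were, and none lower, with a median of 0.11. Tubb6, a β-tubulin of non-neuronal cells, was at 1.14 to 3.56 FPKM in control and 6.61 to 16.6 FPKM in treated retinas (log2 difference 1.53, SE 0.22, adjusted p = 0.0028 by limma), higher in 6 of 6 mice. Tubb5, widely expressed, was called at 0.50 (SE 0.11, adjusted p = 0.0236), and with the replicate block it was not (adjusted p = 0.0637). Tuba1a, the most abundant at 464 to 880 FPKM, gave 0.04 (adjusted p = 0.906). Tubb2a (-0.88, adjusted p = 0.0521) and Tubb4a (-1.15, adjusted p = 0.0544), neuronal isoforms named after their values were seen, lay just outside the threshold.

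Of 14 microtubule-associated proteins, other stathmins and collapsin response mediators, 8 were called lower over 6 mice, where 5.44% of all rows were. None was called higher, and the median was -0.69. Dpysl2, a collapsin response mediator that binds tubulin, gave -0.87 (adjusted p = 0.0137 by limma), Map6, which stabilizes microtubules, -0.81 (0.0202), Map4 -0.57 (0.0236) and Dpysl5 -1.01 (0.03). Stmn3, the relative of Stmn2 and the most abundant of the list, gave -0.82 (0.0397). Mapt, which encodes tau, was called too, at -1.36 (0.0379). With the replicate block 6 of the 14 were called lower, beside 2.47% of all rows.

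Of 12 genes of axonal transport, 2 were called lower, where 5.44% of all rows were, with a median of -0.24. Dync1i1, a dynein intermediate chain, stood at 14.9 to 23.3 FPKM in control and 2.55 to 14.0 FPKM in treated retinas (-1.496, SE 0.32, adjusted p = 0.0193 by limma). Klc1, a kinesin light chain, gave -0.48 (adjusted p = 0.0450), and Kif1b, among the most abundant, 0.11 (0.305). Of 10 spectrin, ankyrin and growth cone membrane genes, only Sptbn1 was called, at -0.43 (adjusted p = 0.0343), beside the same 5.44% of all rows called lower. The most abundant of that list, Basp1 (-0.61, adjusted p = 0.0796) and Sptan1 (0.23, 0.0904), were not. With the replicate block only Dync1i1 of these 22 genes was called, beside 2.47% of all rows called lower, so this count is near the share of all rows.

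Of 13 intermediate filament genes of other cells, 5 were called higher, where 6.76% of all rows were, and none lower, with a median of 0.47. Gfap, the filament of astrocytes and reactive Müller glia, was at 9.62 to 33.3 FPKM in control and 79.5 to 220 FPKM in treated retinas (2.66, SE 0.33, adjusted p = 0.0014 by limma), higher in 6 of 6 mice. Vim, present in Müller glia throughout, rose by 1.51 (SE 0.21, adjusted p = 0.0022), and Nes by 0.76 (adjusted p = 0.0197) from levels under 1 FPKM. The remaining calls were the lens filament genes Bfsp1 (3.09, 0.0343) and Bfsp2 (2.46, 0.0234). With the replicate block 4 of the 13 were called higher, beside 4.83% of all rows, without Nes (adjusted p = 0.0505). Krt18, the 2nd most abundant of the list, was not called (0.47, 0.0620).

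Among the relatives of Sncg, Thy1 and Uchl1, Sncb, β-synuclein and the most abundant, gave -0.0036 (adjusted p = 0.992 by limma). Ly6e, a surface protein of the Ly6 family and known as an interferon-induced gene, rose by 1.73 (SE 0.18, adjusted p = 0.000555). Uchl3 (0.39, adjusted p = 0.0995) and Uchl5 (0.16, 0.525), hydrolases related to Uchl1, did not pass, nor did Ly6h (-0.29, 0.449).

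**Figure D5:**
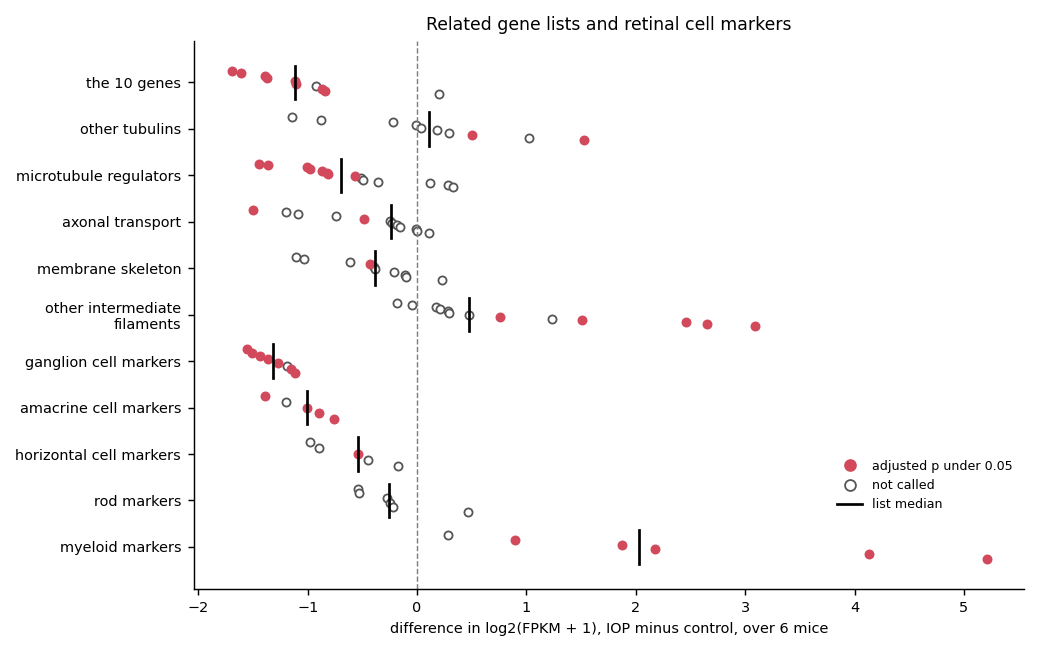
Difference in log2(FPKM + 1) between IOP-treated and control retinas over 6 mice for every gene of each list, with genes called by limma at an adjusted p under 0.05 in red and the list median as a black bar. The 10 genes center at -1.11 beside the ganglion cell markers at -1.32 and the amacrine markers at -1.01, microtubule regulators at -0.69, rod markers at -0.26, and other intermediate filaments at 0.47.

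Of 8 ganglion cell markers outside the 10 genes, 7 were called lower over 6 mice (median -1.32), where 5.44% of all rows were. With the replicate block 3 were called lower, beside 2.47% of all rows. The 8 summed to 123 to 266 FPKM in control and 31.8 to 152 FPKM in treated retinas. Pou4f3 (-1.37, adjusted p = 0.0102 by limma), Pou4f2 (-1.51, 0.0281), Isl2 (-1.15, 0.0325) and Pou4f1 (-1.27, 0.0345) are transcription factors of these cells, and the most abundant markers, Nrn1 (-1.55, 0.0428) and Rbpms (-1.12, 0.0382), were called as well. Of 5 amacrine cell markers 4 were called lower (median -1.01), all 4 also with the replicate block, beside the same shares of all rows. The 5 summed to 124 to 174 FPKM in control and 43.0 to 118 FPKM in treated retinas. Gad1, for GABA synthesis, gave -1.39 (adjusted p = 0.0365) and Slc6a9, the glycine transporter, -0.89 (0.0150).

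Horizontal cells, a further source of neurofilament transcripts, had 1 of 5 markers called lower, where 5.44% of all rows were. It was Lhx1 (-0.54, adjusted p = 0.0382 by limma). The 5 had a median of -0.54 and sums of 44.3 to 61.2 FPKM in control and 11.8 to 48.8 FPKM in treated retinas. Tfap2b (-0.98, adjusted p = 0.0648) and Calb1 (-0.90, 0.105) were not called. All 5 had an unadjusted p under 0.05, where 30.3% of all rows did, and all 5 were lower in 6 of 6 mice, where 10.1% of all rows were. None of the 6 rod markers was called (median -0.26, with 1 at an unadjusted p under 0.05). Their log2 differences ran from -0.54 to 0.46, with a smallest adjusted p of 0.0776 by limma. Of the 6, 1 was higher in 6 of 6 mice, as were 10.7% of all rows. Gnat1, the rod transducin, gave -0.25 (adjusted p = 0.897, the largest of the 6). The part of each cell type in the loss of the 10 genes was not tested.

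Of 6 myeloid markers 5 were called higher over 6 mice (median 2.03), where 6.76% of all rows were. The largest adjusted p of the 6 was 0.196 by limma. They summed to 14.1 to 54.4 FPKM in control and 158 to 2319 FPKM in treated retinas. Lyz2 gave 5.21 (adjusted p = 0.0014 by limma) and Cd68 4.14 (0.0023). Among 6 lens markers 3 were called higher, beside the same 6.76% of all rows, with Crybb2 at 4.83 (adjusted p = 0.0297) and Cryaa at 4.68 (0.0489). T cell markers stayed at or under 1.25 FPKM in all libraries, Cd3d and Cd2 were listed at 0 in the controls, and none of the 5 was called (1 at an unadjusted p under 0.05). Of 5 Schwann cell and myelin markers, only Egr2 was called higher (0.64, adjusted p = 0.0252 by limma), at no more than 1.59 FPKM. Beside it, 6.76% of all rows were called higher. Mbp was not called (-0.25, 0.232). The sum of the 5 was 6.48 to 7.96 FPKM in control and 3.93 to 8.93 FPKM in treated retinas. A single marker reached 7.29 FPKM, and not all 5 are particular to peripheral nerve, so the sum does not measure such tissue. The source of Prph was not tested.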

How the data were processed

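RNA-seq was done on both retinas of 6 mice. Libraries were made with a stranded mRNA kit. The authors counted fragments on RefSeq exons with HOMER per the methods, and the processing notes in the labels name TopHat2, Bowtie2, Cufflinks, Cuffdiff and mm10. The deposited values are FPKM per gene and library. No source gives the unit, which follows from how low values step, and any scaling between libraries before deposit is not given in the sources used here.

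Depth was estimated from values up to 0.6 FPKM of 2243 genes with 1 transcript, 1500 bases or longer and shortened by 170 bases. From a grid of depths, the 1 was taken at which the largest share of values fell within 0.1 of a whole number of fragments. That share, made as large as possible by this choice and counted over values of few fragments only, was 75.5% to 83.8%. As counts are not in the table, a count test and counting intervals were not used.

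Rows above 0 in at least 1 library were analysed as log2(FPKM + 1), which understates changes of low genes, with limma 3.58.1 in R 4.3.3: 4 group means over 12 libraries, variance trend, Benjamini-Hochberg adjustment over 18509 rows, calls at 0.05. The effect over 6 mice is the mean of both IOP effects. Both eyes of a mouse come from 1 animal, so the mouse number pairs them, and it was fitted as a replicate block. Deviations of paired libraries from their group means correlated at -0.117 to 0.388. Replicates are separate mice. Also tried were median-ratio scaling, no variance trend, a filter (1 FPKM or more in at least 3 libraries), 0.1 as pseudocount, a fit of the compared groups alone and each library left out; leaving out each mouse for the ratios and within-mouse differences was added after seeing the data. On simulated data for IOP against control without GCV, with 200 changed genes of 18509, 125 were recovered with 3 false calls. The simulation drew normal noise with 1 spread per gene for all groups, and changed only genes averaging 1 FPKM or more. Treated retinas without GCV spread more than controls in the data, so these figures do not describe the fit on groups of unequal spread.

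The members and lists were chosen with earlier results of these data known. Named are the 10 members, in each other list the called genes (at most 4, smallest adjusted p first) and the 2 most abundant, and the 6 genes most like the members' profile; other names were chosen after their values were seen. All 121 listed symbols matched a row. Some results are withheld and not reported here. Tables and figures were made in Python 3.11.15 (matplotlib 3.10.9, pandas 2.3.3, numpy 2.4.6).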

Additional observations from a re-analysis of the deposited data

How the results depend on the processing

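Of 320 estimates for the 10 genes under alternatives other than leaving out a library, 312 kept direction and side of the threshold, 6 lost the call and 2 gained it, and none changed sign. With the mouse as a replicate block 4 members were called over 6 mice, beside 2.47% of all rows called lower, and Nefl, Nefm, Stmn2 and Sncg were lost. Without the variance trend Nefm (adjusted p = 0.0534 by limma) and Stmn2 (0.0511) were lost. The filter on low values, which tests fewer rows, gained Uchl1 over 6 mice (0.0443) and Nefh with GCV (0.0457). In that fit 9 of the 10 were called lower over 6 mice, where 9.99% of its 13411 rows were. With GCV 1 member was called lower there, where 0.283% of these rows were. The block changed no other call among the 10.

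Leaving out 1 library at a time gave 0 to 8 members called without GCV, 0 to 5 with GCV and 1 to 9 over 6 mice. The shares of all rows called lower in these fits were 0% to 8.25%, 0.00542% to 2.57% and 0.944% to 13.6%. The cause was not tested, beyond fewer libraries in each fit. The median difference of the 10 then ran from -1.48 to -0.56 without GCV, -1.54 to -1.07 with GCV, -1.30 to -0.89 over 6 mice, -0.40 to 0.57 for the interaction, -0.01 to 0.95 for GCV in IOP-treated retinas and 0.17 to 0.53 for GCV in control retinas. Of 720 such estimates 40 changed sign, none of a called value: Prph without GCV (-0.43 to 0.16) and for GCV in control retinas (-0.044 to 0.29); the interaction of Nefl (-0.20 to 1.02), Nefm (-1.10 to 0.25), Ina (-0.48 to 0.66), Tubb3 (-0.17 to 0.37), Stmn2 (-0.24 to 0.59), Sncg (-0.999 to 0.016), Uchl1 (-0.32 to 0.68) and Thy1 (-0.56 to 0.56); and GCV in IOP-treated retinas for Nefm (-0.56 to 0.79), Nefh (-0.46 to 0.17), Ina (-0.11 to 1.04), Sncg (-0.51 to 0.51) and Thy1 (-0.18 to 0.93). Mean log2 changes of the ratio to Nefl with 1 mouse left out, an alternative added after seeing the data, were 0.05 to 0.41 for Nefm, 0.31 to 0.70 for Nefh and 1.71 to 2.11 for Prph, and the mean of the median within-mouse difference was -1.38 to -1.03.

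Over all rows, 306 were called without GCV (464 at a pseudocount of 0.1, 75 with the block, 23 to 2490 with a library left out), 334 with GCV (535, 144 and 77 to 1046, and 92 with only the groups compared) and 2258 over 6 mice (1351 with the block, 830 to 4515). Where none was called, leaving out a library gave up to 2 rows for the interaction, 4 for GCV in IOP-treated and 3 for GCV in control retinas, and the last comparison had 1 at a pseudocount of 0.1 or with only the groups compared. With 3 mice per treatment and a low estimated fragment number for Prph, small changes could not be seen.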

Other observations

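Gap43, a growth cone protein known to be raised when some neurons regrow axons, was measured at 32.4 to 64.0 FPKM in control and 21.6 to 59.8 FPKM in treated retinas, with a difference of -0.11 over 6 mice (SE 0.23, adjusted p = 0.786 by limma). It was higher in the treated eye of mouse 4 (59.8 against 36.8 FPKM), mouse 1 and mouse 5 and lower in mice 3, 6 and 2, which is the same split between mice as for Prph. The pattern was noticed after the values were seen and was not tested. Map1b (0.28, adjusted p = 0.248) and Map2 (0.12, adjusted p = 0.554), abundant microtubule-associated proteins of neurons, were likewise not called, beside Map1a at -1.44 (adjusted p = 0.0409 by limma).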
